A study of Mus musculus with 4 samples.

Results

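The miR-106a-363 cluster on chromosome X and the miR-106b-25 cluster on chromosome 5 are the paralogs of the miR-17-92 cluster, and 7 of their microRNA (miRNA) loci were followed in mouse whole blood. They were taken by name from the lists of mature reads: mmu-mir-106a, mmu-mir-20b, mmu-mir-19b-2, mmu-mir-92a-2 and mmu-mir-363 of the first cluster, and mmu-mir-106b and mmu-mir-93 of the second, written here as miR-106a and so on. All 7 were listed in each of the 4 libraries, among 374 annotated loci in all, and all 7 entered the test of 276 loci. Blood came from Balb/c mice aged 180 days, an inbred albino strain, with 2 libraries from mice that drank cadmium in their water and 2 from mice without it. Cadmium is a toxic metal that accumulates in liver and kidney. The labels do not tie libraries to animals. A p-value for a fold change sets it against the spread between libraries of a group, estimated partly from all tested loci together. That spread is between libraries only and may be technical. Neither the cadmium dose nor how long it was given is stated in the sources used.

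A miRNA is cut from a hairpin precursor and guides a silencing complex to messenger RNAs, mainly through its seed, the bases from position 2 to position 8. The miR-17 family is known for promoting proliferation. It does so in part by repressing the cell cycle inhibitor p21 and the pro-apoptotic protein Bim, and its clusters arose by duplication. In blood these miRNAs are known from dividing precursors of several lineages. miR-93 and miR-106b are processed from an intron of Mcm7, which encodes a subunit of the helicase that opens DNA for replication.

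The mature sequences below, from RefSeq (GRCm38.p6), show which members share a seed, in capitals, and how little else sets them apart. The first 4 are members with the miR-17 seed and miR-17 itself follows for comparison. The last 3 are the members of the miR-19 and miR-92 seed families.
miR-106a: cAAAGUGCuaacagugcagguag
miR-20b: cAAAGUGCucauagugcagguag
miR-106b: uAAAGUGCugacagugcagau
miR-93: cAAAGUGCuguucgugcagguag
miR-17: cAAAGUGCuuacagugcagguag
miR-19b: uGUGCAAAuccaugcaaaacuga
miR-92a: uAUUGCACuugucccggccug
miR-363: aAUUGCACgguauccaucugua

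Counting positions from 1 at the 5′ end, miR-106a differs from miR-17 by U10A alone over 23 bases. miR-20b differs from miR-20a, its counterpart on chromosome 14, by U1C and U10C. Between miR-106a and miR-20b the differences are A10C and C12U, and miR-106b differs from miR-106a by C1U, A10G and G20A over 21 bases. miR-93 carries A10G, A11U, C12U and A13C against miR-106a. All of these lie outside the seed. The mismatches allowed in alignment are not stated in the sources used, and whether reads of miR-17 were counted at miR-106a was not tested. miR-363 shares its seed with miR-92a but matches it at only 10 of 21 positions.

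The 5 listed hairpins of the first cluster lie on the minus strand of chromosome X (mm10) within 875 bases, from 52741693 to 52742567. miR-106a comes first in the direction of transcription, and its hairpin overlaps the last 5 bases of the noncoding RNA Kis2. The other 4 hairpins overlap no other annotated gene in GENCODE M21. The miR-106b and miR-93 hairpins lie on the minus strand of chromosome 5, from 138165523 to 138165818, between exons 13 and 14 of the Mcm7 transcript Mcm7-201. The miR-93 hairpin also falls inside an exon of Mcm7-202, a transcript annotated with a retained intron. The counted arm was 5p for the 4 loci with the miR-17 seed and 3p for miR-19b-2, miR-92a-2 and miR-363, in every library. miR-25 and miR-18b, which also belong to these clusters, were not analysed here.

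Levels are given as CPM, reads scaled to a common library total with TMM factors, which set the libraries level over most loci. Reads were not divided by length. The total adds up loci, so reads listed at several copies of a mature sequence enter it at each copy. In cadmium 1 the annotated loci summed to 14383852 reads, and to 8889842 without repeats of the same mature sequence. A CPM value is therefore not a share of the molecules sequenced. miR-92a-2, miR-93 and miR-19b-2 stood highest, with 2996 to 21230 CPM in single libraries. miR-106b had 1027 to 1607 CPM, and miR-363, miR-20b and miR-106a had 3.47 to 13.0 CPM. The order from miR-92a-2 down to miR-106a was the same in both groups. In neither group did the 2 libraries of a locus overlap those of the next locus in that order. The controls averaged 18568 ± 3766 CPM for miR-92a-2 and 11671 ± 4092 CPM for miR-93 (SD, n = 2 each), so the ends of these SD ranges crossed although no library of one lay within the range of the other. The 2 loci of the chromosome 5 cluster summed to 575 and 508 times the reads of the 3 chromosome X members with their own sequence in cadmium libraries 1 and 2. In controls 1 and 2 the factor was 470 and 743.

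**Figure D1:**
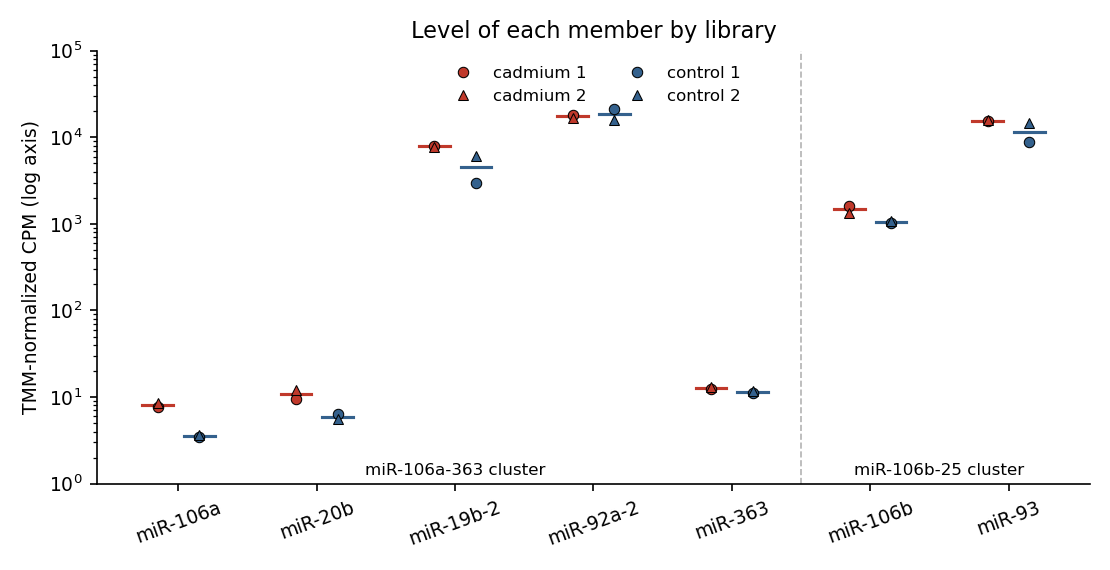
TMM-normalized CPM of the 7 members (log axis) in each library, with the group mean as a line and cadmium left of control. miR-106a and miR-20b lie higher in both cadmium libraries than in both controls, and the 2 controls of miR-19b-2 and miR-93 lie far apart.

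With cadmium, miR-106a was 2.30-fold and miR-20b 1.82-fold higher, and these 2 of the 7 members passed the test. No member was lower past the threshold. Both are chromosome X loci of low level, carried by 81 to 206 reads per library. miR-106b, miR-19b-2 and miR-93 had positive changes that did not pass, and miR-363 and miR-92a-2 stood near their control level. Of all 276 loci, 14.5% passed (edgeR p adjusted by Benjamini-Hochberg over all loci, under 0.05), 7.97% higher and 6.52% lower with cadmium. The median log2 fold change was 0.49 over the 7 members, 0.49 over the 5 with their own sequence and 0.08 over all tested loci. This is a description without a test.

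miR-106a (mmu-mir-106a) had 124 and 147 reads in cadmium libraries 1 and 2, and 109 and 81 in controls 1 and 2, which were sequenced more deeply. Exact 95% Poisson intervals, which cover counting error only, were 103 to 148 and 124 to 173 reads with cadmium and 89.5 to 131 and 64.3 to 101 reads in controls. Scaled for depth, its level was 7.67 and 8.65 CPM with cadmium, against 3.47 and 3.61 CPM in controls. Both cadmium libraries lay above both controls, and the lower cadmium value was 2.12-fold above the higher control. The log2 fold change was 1.20 ± 0.22 (SE, 2 libraries per group; edgeR adjusted p = 0.00979). It passed in 15 of the 17 alternatives that tested it (another scaling, filter, test or set of libraries) and missed in the 2 fits that left out a cadmium library (adjusted p = 0.0754 and 0.0842).

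miR-20b (mmu-mir-20b) had 154 and 206 reads in cadmium libraries 1 and 2, and 198 and 125 in controls 1 and 2. This was 9.52 and 12.1 CPM with cadmium, against 6.30 and 5.57 CPM in controls. The groups did not overlap, but the 2 cadmium libraries differed from each other more than the 2 controls did. Its log2 fold change was 0.86 ± 0.24 (SE; edgeR adjusted p = 0.0486), close to the threshold. The call held in 8 of 17 alternatives and was lost, among others, with DESeq2 size factors (adjusted p = 0.0732) and without cadmium 1 or cadmium 2 (adjusted p = 0.172 and 0.375).

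miR-106b (mmu-mir-106b), the first hairpin of the Mcm7 intron, stood at 1607 and 1350 CPM in cadmium libraries 1 and 2, against 1027 and 1077 CPM in controls 1 and 2. The groups did not overlap. The log2 fold change of 0.49 ± 0.15 (SE) missed the threshold (edgeR adjusted p = 0.0686). With total counts alone it was 0.79 and passed (adjusted p = 0.0128), as it did in 6 of 18 alternatives.

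miR-93 (mmu-mir-93), the most abundant member with a sequence of its own, stood at 15373 and 15794 CPM with cadmium, against 8777 and 14564 CPM in controls 1 and 2. Control 1 lay far below the 3 other libraries, which were close together. The log2 fold change was 0.42 ± 0.21 (SE; edgeR adjusted p = 0.243). It was 0.10 without control 1 and 0.83 without control 2, so the size of the difference turned on 1 control library. The test was passed in 4 of its 17 alternatives, total counts alone among them (edgeR adjusted p = 0.0473). The listed window of miR-93 had 23 bases in both cadmium libraries and in control 2, against 20 in control 1. The 2 windows, as the lists give them on chromosome 5, differ by 3 bases at the 3′ end, in capitals:
miR-93, cadmium 1: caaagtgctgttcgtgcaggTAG
miR-93, control 1: caaagtgctgttcgtgcagg

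Against control 2 alone, the control counted over the same window, miR-93 was 1.06-fold and 1.08-fold higher in cadmium libraries 1 and 2. What the window contributed to the count of control 1 was not tested. The end that differs is the 3′ end and the seed is in both windows.

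miR-363 (mmu-mir-363), the last hairpin of the chromosome X cluster, had 12.4 and 13.0 CPM with cadmium, against 11.1 and 11.9 CPM in controls. The groups did not overlap, yet the gap between them was 1.04-fold. The log2 fold change was 0.14 ± 0.22 (SE; edgeR adjusted p = 0.667), and it passed in none of its 17 alternatives. Its window had 20 bases in cadmium 1 and control 1 and 22 in cadmium 2 and control 2. Within each window the cadmium library was 1.11-fold and 1.10-fold above the control.

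miR-19b-2 and miR-92a-2 cannot be separated from their copies on chromosome 14, because the mature sequences are identical. miR-19b-2 and miR-19b-1 were listed with the same count in each library, so the reads were counted at both. The level was 8005 and 7797 CPM with cadmium, against 2996 and 6138 CPM in controls 1 and 2. Both controls were lower than both cadmium libraries, and control 1 lay far below control 2. The log2 fold change was 0.79 ± 0.28 (SE; edgeR adjusted p = 0.100), and it was 0.36 without control 1 and 1.40 without control 2. Without cadmium 1 it was 0.77, and without cadmium 2 it was 0.81. A fit with 1 control left takes its spread from the cadmium libraries, so it cannot measure how far the controls lie apart.

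miR-92a-2 stood at 18275 and 16817 CPM with cadmium, against 21230 and 15905 CPM in controls 1 and 2. The groups overlapped, with a log2 fold change of -0.08 ± 0.14 (SE; edgeR adjusted p = 0.704) whose sign turned in 5 of 17 alternatives, total counts among them (0.22). Unlike the miR-19b copies, miR-92a-2 was not listed with the count of its copy. It had 77.9% and 75.6% of the reads of miR-92a-1 in cadmium libraries 1 and 2, and 78.2% and 78.3% in controls 1 and 2. The listed windows have the same 21 bases, while the hairpins begin to differ at the next base. The RefSeq hairpins with the 5 bases after the mature end, in capitals, are:
miR-92a-2, chromosome X: uauugcacuugucccggccugAGGAA
miR-92a-1, chromosome 14: uauugcacuugucccggccugUUGAG

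The handling of reads that run past the mature end is not stated in the sources used. The ratio of the 2 counts varied by under 3 percentage points over the 4 libraries.

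**Figure D2:**
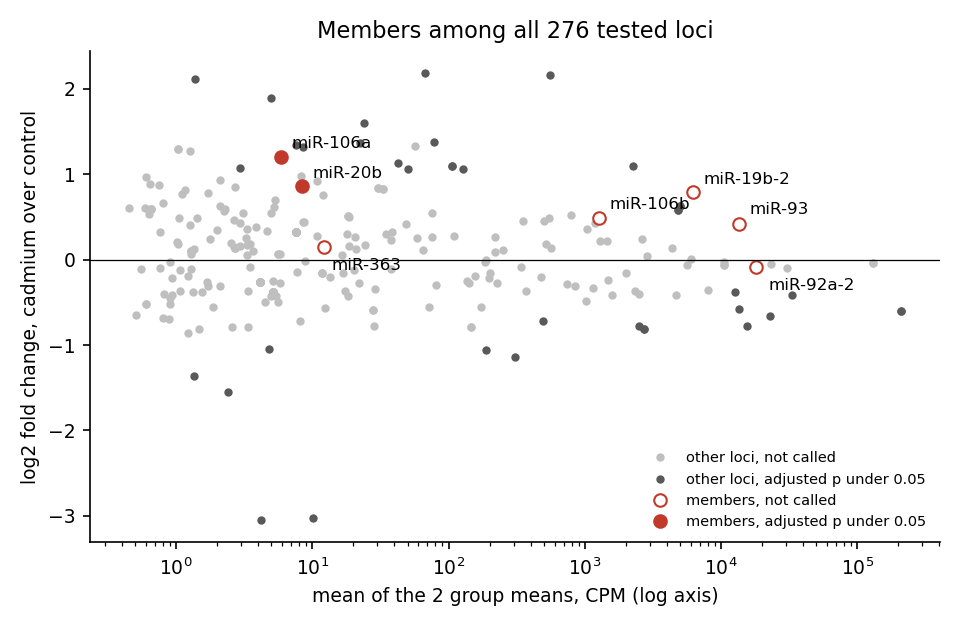
Log2 fold change (cadmium over control) against the mean CPM (log axis) for all 276 tested loci, with the members in red. miR-106a and miR-20b, the filled red points, are members of low level, and the abundant members miR-93, miR-19b-2 and miR-92a-2 lie between -0.08 and 0.79.

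Of the 7 members, 6 had groups that did not overlap and were higher with cadmium in both libraries. These included all 5 members with their own sequence. Over all tested loci 69.9% did not overlap, 39.5% in the higher and 30.4% in the lower direction. Copies of the same mature sequence each count as a locus in these shares. Such separation was thus common in these 4 libraries.

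Ratios of reads within a library do not depend on scaling, and 6 pairs were compared. With 2 libraries in each group an exact two-sided permutation test gives no p below 0.333, so none of these ratios could pass. The reads of miR-106a were 0.561% and 0.607% of those of miR-17 in cadmium libraries 1 and 2, and 0.292% and 0.300% in controls 1 and 2. The ratio was 1.97-fold higher with cadmium (exact permutation p = 0.333, adjusted p = 0.400). miR-17 is the nearest neighbour of miR-106a in sequence, and what miscounted reads of miR-17 contributed to this ratio was not tested.

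Inside the chromosome X cluster, both ratios compared were lower in both cadmium libraries than in both controls, though the test of them could not pass. For each 100 reads of miR-106a there were 161 and 150 reads of miR-363 in cadmium libraries 1 and 2, and 320 and 328 in controls 1 and 2. That log2 ratio was lower with cadmium by 1.06 (difference -1.06; exact permutation p = 0.333, adjusted p = 0.400), with close replicates in both groups. For miR-20b over miR-106a the log2 ratio was 0.40 ± 0.12 with cadmium and 0.74 ± 0.17 in controls (SD, n = 2 each; exact permutation p = 0.333). The groups did not overlap.

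Between the 2 hairpins of the Mcm7 intron the ratio did not separate the groups. miR-93 over miR-106b had a log2 ratio of 3.26 and 3.55 with cadmium, and 3.10 and 3.76 in controls 1 and 2 (exact permutation p = 1.0). The 2 controls spanned both cadmium libraries, and the lower of them was control 1, with the shorter window of miR-93. Across the clusters, miR-106a over miR-106b was higher with cadmium, at a log2 ratio of -7.50 ± 0.30 with cadmium and -8.22 ± 0.01 in controls (SD, n = 2 each; exact permutation p = 0.333). For miR-20b over miR-20a it was -7.17 ± 0.19 with cadmium and -7.55 ± 0.29 in controls (exact permutation p = 0.333).

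**Figure D3:**
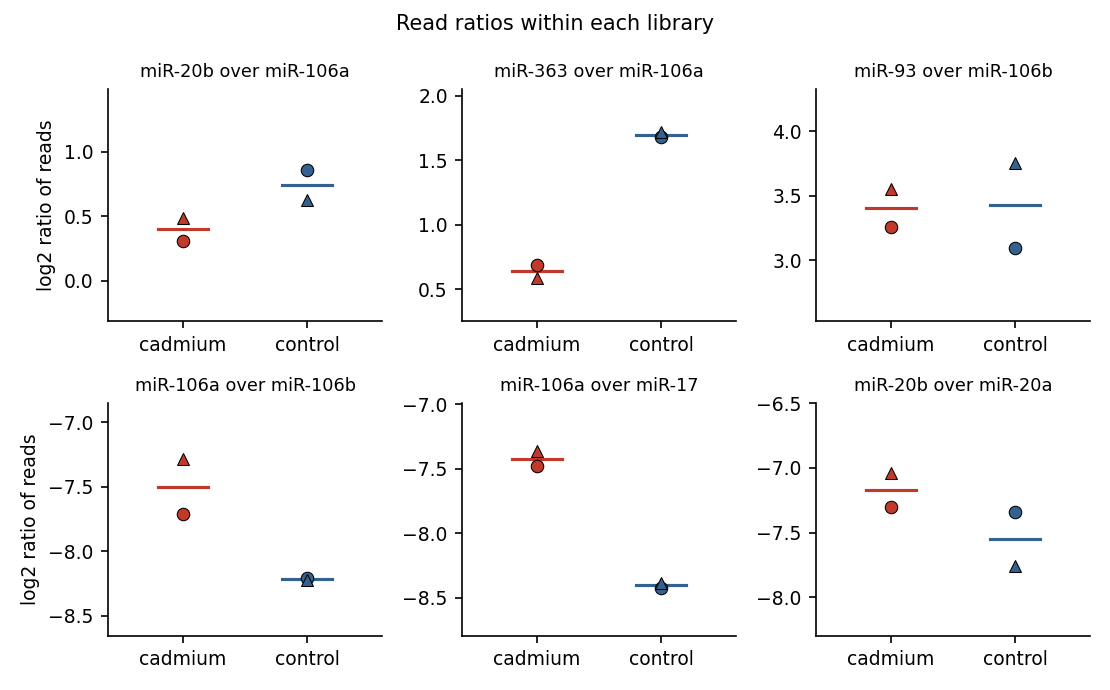
Log2 ratios of reads for 6 pairs of loci, 1 point per library with the group mean as a line, all panels spanning the same height. miR-363 over miR-106a and miR-106a over miR-17 separate the groups widely, and miR-93 over miR-106b does not.

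The miR-17 seed was found at 6 annotated loci of these lists, the 4 members with miR-17 and miR-20a. Together they held 3.60% ± 0.02 of the counts with cadmium and 2.22% ± 0.64 in controls (SD, n = 2 each; each mature sequence counted once). miR-93 alone made up 77.4% and 78.3% of that family in cadmium libraries 1 and 2, and 73.0% and 80.6% in controls 1 and 2. Control 1 is the library with the shorter window of miR-93. miR-106a and miR-20b, the members that passed, each held under 0.1% of it in every library.

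The 5 members with their own sequence held 3.10% and 3.05% of the counts in cadmium libraries 1 and 2, and 1.44% and 2.32% in controls 1 and 2. For cadmium 1 the 95% Wilson interval ran from 3.08% to 3.11% and takes in counting error only. The groups did not overlap, and miR-93 made up most of each share. In control 1, which had the lowest share, miR-93 was counted over 20 bases, against 23 in the other libraries. A share also moves with the other loci in the total, and no test of it was run.

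The 6 loci of the chromosome 14 cluster form the comparison list, of which 1 passed, higher, and 0 lower. That locus was miR-18a, at 2.16 ± 0.26 on the log2 scale (SE; edgeR adjusted p = 0.00204); its chromosome X counterpart miR-18b was not analysed here. miR-17 had 0.22 ± 0.13 and miR-20a 0.47 ± 0.15 (SE), neither past the threshold, beside 1.20 for miR-106a and 0.86 for miR-20b. miR-19a had -0.16 ± 0.33 and miR-32, a further locus with the miR-92 seed, -0.11 ± 0.25. The list had a median of 0.35. It includes miR-19b-1 and miR-92a-1, which have the mature sequences of miR-19b-2 and miR-92a-2, so it is not independent of the members. A difference in response between the clusters was tested only through the ratios above, where the design cannot pass.

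**Figure D4:**
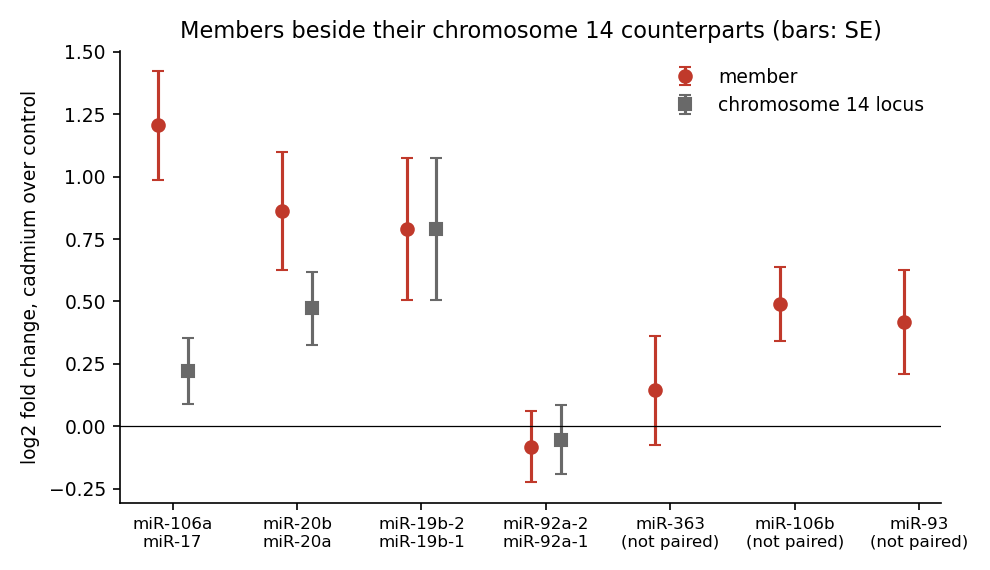
Log2 fold changes (cadmium over control, bars are SE) of the members, in red, and of the chromosome 14 loci at the matching place, in grey. miR-106a lies above miR-17 by more than both errors, and the copies of miR-19b and of miR-92a coincide or nearly so.

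Patterns over the 4 libraries were compared by the root mean square distance of centred log2 CPM, for the most abundant member of each cluster with its own sequence. The 3 loci nearest to miR-363 were miR-182 (0.019), miR-330 (0.045) and miR-17 (0.047). Nearest to miR-93 were miR-139 (0.078), miR-671 (0.081) and miR-190b (0.108). miR-363 is thus flat across the libraries together with its nearest loci, and miR-93 shares a low control 1 with its own. With 4 libraries this is a description.

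miRNAs of blood cell types also differed between the libraries. The 2 tested of 3 erythroid markers, miR-144 and miR-486, summed to 172101 and 183915 CPM with cadmium and to 279737 and 258776 CPM in controls. Most of that sum was miR-486, with 161361 and 173095 CPM with cadmium and 261145 and 245108 CPM in controls. The 3 lymphocyte markers (miR-150, miR-181a-1 and miR-342) summed to 2114 and 2121 CPM with cadmium and to 4179 and 3158 CPM in controls. The 2 platelet markers, miR-126a and miR-199a-1, summed to 212 and 190 CPM with cadmium and to 256 and 191 CPM in controls. Most of the lymphocyte sum was miR-181a-1, while miR-342 had 2.84 and 3.82 CPM with cadmium and 2.39 and 4.15 CPM in controls. Both erythroid and lymphocyte sums were lower in both cadmium libraries, though miR-342 by itself overlapped between the groups, and their part in the results for miR-106a and miR-20b was not tested. In whole blood, fewer cells of a type and less RNA per cell cannot be told apart. The erythroid marker miR-451a and the myeloid marker miR-223 were not analysed here.

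Which members passed depended on scaling. Relative to the median locus, miR-106a stood 1.12 to 1.13 higher on the log2 scale under all 5 scalings, miR-20b 0.78 to 0.79, miR-19b-2 0.67 to 0.71, miR-106b 0.40 to 0.41 and miR-93 0.31 to 0.34. miR-363 stood 0.06 to 0.07 above that median and miR-92a-2 between -0.16 and -0.15. A scaling changes all loci of a library by the same factor, so these distances were bound to stay nearly the same. Their constancy is therefore no support for the changes. What moved with the scaling was the median locus. It stood at 0.08 with TMM, -0.01 with DESeq2 size factors, 0.21 without dominant loci, 0.32 with the upper quartile and 0.38 with total counts.

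**Figure D5:**
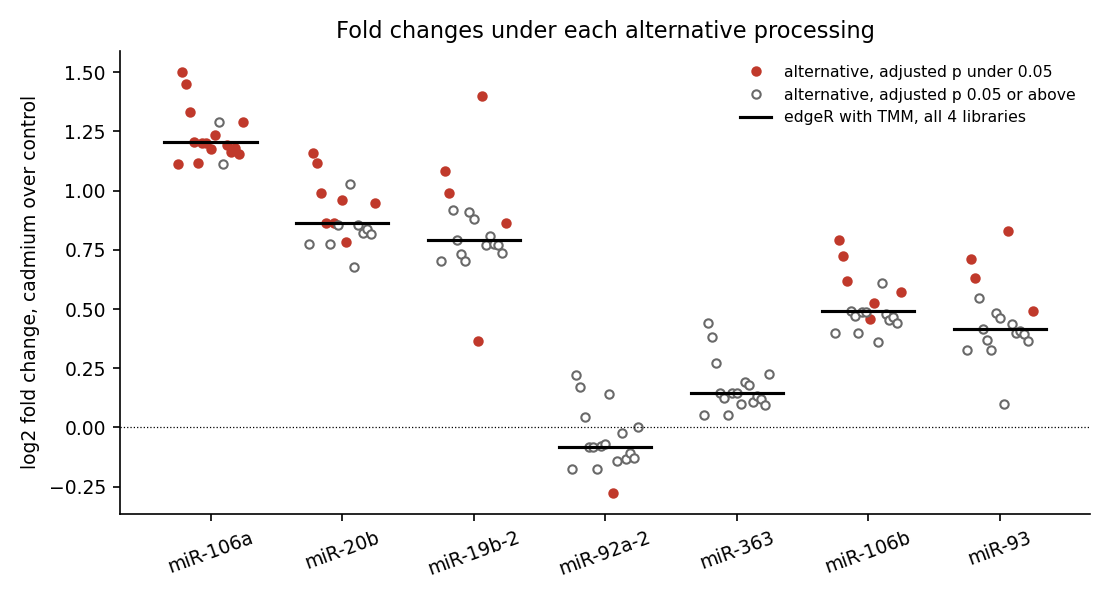
Log2 fold change of each member (cadmium over control) under each alternative, filled where the adjusted p was under 0.05, with the main value as a line. miR-106a, miR-20b, miR-19b-2, miR-363, miR-106b and miR-93 stay above 0 in every alternative run, and miR-92a-2 lies on both sides of it.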

How the data were processed

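Small RNA libraries of whole blood were sequenced on an Illumina HiSeq, per the labels. Each deposited file gives counts of mature reads per locus, whole numbers that the authors did not normalize. The submitters' processing notes name Bowtie 0.12.2, DESeq and mm10, without roles. The lowest count listed was 5, so an unlisted locus is not a measured 0. Star rows repeating a locus were merged, and an unnamed total row in cadmium 1 was left out. In control 2 only 162 of 693 listed sequences have the length of their window, so that column was not used. Named rows summed to 17064897 and 18575659 in cadmium libraries 1 and 2, and to 43666624 and 30277884 in controls 1 and 2.

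The 277 annotated loci counted on 1 arm throughout and listed in every library, less 1 removed by filterByExpr, were tested with edgeR 4.0.16 in R 4.3.3: TMM, quasi-likelihood F test, two-sided, Benjamini-Hochberg over all loci, threshold 0.05. The fit was checked on simulated data with larger changes than those of the members and the same spread in both groups. That check does not cover changes as small, or spreads as unequal, as those found here. Standard errors are the absolute log2 fold change over the square root of F. Chi-square per degree of freedom between libraries was 60.6 for cadmium and 1019 for control, so neither pair is 1 library listed again. Alternatives used DESeq2 1.42.0 and limma 3.58.1 too. Python 3.11.15 and SciPy 1.17.1 gave the permutation tests and intervals. Named loci are the members, the chromosome 14 cluster, miR-32 and the 3 nearest patterns per cluster. The members and lists were chosen with earlier results of these data known. miR-25, miR-18b and miR-367 are not analysed here.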

Additional observations from a re-analysis of the deposited data

How the results depend on the processing

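Of 276 loci, 40 passed (22 higher, 18 lower with cadmium). With total counts alone 65 did (57 and 8), and the split was 21 and 27 with DESeq2 size factors, 48 and 9 with the upper quartile and 38 and 14 without dominant loci. Including predicted loci gave 83. The count was 8 and 9 without cadmium 1 and 2, and 105 and 122 without control 1 and 2. The number of members that passed, 2 in the main test, was 5 under total counts, under upper quartile scaling and after predicted loci were added, 0 without either cadmium library, and 4 and 6 without control 1 and 2. It was 1 with DESeq2 size factors, the DESeq2 test, 1 locus per mature sequence, identical windows only, and unlisted loci as 0 or as 4 reads, and 0 with a mean CPM of at least 10, which removes miR-106a and miR-20b. The sign of miR-92a-2 turned with total counts (0.22), the upper quartile (0.17), totals without dominant loci (0.043), predicted loci included (0.0038) and without control 1 (0.14, the range without 1 library being -0.27 to 0.14); the cause was not tested. The log2 ratio of miR-93 over miR-106b differed by -0.02 between the groups, and by -0.35 to 0.31 when 1 library was left out. Counting each listed locus in the total, the 5 members with their own sequence held 1.59% with cadmium and 0.934% in controls. Same-numbered libraries did not deviate together (r = 0.0047 across 276 loci, which are not independent). With the replicate number as a block, 19 loci passed and 1 member, miR-106a. In fits without 1 library, the lone library is assumed to vary like the other group. Whether a locus passes there does not measure the spread of the group left with 1 library. The tallies of alternatives passed include these fits. The 6 members counted without control 2 were not all higher with cadmium. miR-92a-2 was among them and was lower there (log2 fold change -0.27), while the others counted were higher. miR-106a and miR-20b rest on 81 to 206 reads per library, so counting error is larger relative to their values than for the abundant members; its part in the standard errors was not computed.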
